A study of Homo sapiens with 30 samples.

Results

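The canonical histone genes lie in clusters on chromosomes 6 and 1, and the array design names them by cluster (HIST1H, HIST2H or HIST3H) and by the histone they encode. All genes whose name on the array begins in this way were taken, which gave 63 of 30484 gene names, with 83 of 41000 probes, and each gene was represented by the probe with the highest mean signal over the 30 arrays. Of the 63 genes, 54 belonged to HIST1, 6 to HIST2 and 3 to HIST3, and they encoded H1 (6 genes), H2A (15), H2B (17), H3 (12) and H4 (13). The samples came from 5 human breast cancer lines in culture (ZR-75-30, SK-BR-3, HCC1954, HCC1419 and MDA-MB-361), all known to carry an amplified ERBB2 gene. Each line was treated with recombinant bone morphogenetic protein 4 (BMP4), a ligand of the TGF-beta family, or with vehicle for 30 min or for 1, 3, 6, 12 or 24 h. One two-colour array was hybridised for each line and time point, with RNA of BMP4-treated cells in Cy5 and RNA of vehicle-treated cells of the same time in Cy3. Triplicate treatments were pooled before labelling, each line had 1 array per time point, and no dye swap was made. The spread at a time point is thus that between the 5 lines, and a ratio tested against 0 holds any dye bias of its probe.

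Canonical histones are made in bulk while DNA is being copied. H2A, H2B, H3 and H4 form the core of the nucleosome and H1 binds the linker DNA between nucleosomes. Their mRNAs rise at the start of S phase, when cyclin E and CDK2 act on NPAT at the histone gene clusters, and they are destroyed when replication stops. Most of these mRNAs end in a stem-loop bound by SLBP rather than in a poly(A) tail, whereas some histone genes also give polyadenylated transcripts in cells that have stopped dividing. Replacement histones, such as those of the H3F3 and H2AF genes, are made outside S phase and lie elsewhere in the genome. Many cluster genes of a class are near copies of each other, so a probe may take up RNA of several genes of its class, which was not tested. The labelling kit used for these arrays primes on poly(A) tails, which most canonical histone mRNAs lack, and the part this played in the values was not tested.

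Ratios are given as log2 of BMP4 over vehicle, so 0 means equal signal. For the spike-in controls, the slope of measured against nominal log ratio was 0.53 to 0.88 over the 30 arrays, so log ratios of these controls came out smaller than their nominal values. Between 58.9% and 70.6% of probes had a Cy3 signal well above background, and 59 of the 63 histone cluster genes had one on more than 15 arrays. HIST1H1T and HIST1H2BA reached this on no array, HIST1H1A on 1 and HIST1H4G on 9. The epithelial genes KRT8, KRT18, KRT19 and TACSTD1 and the genes ERBB2 and GATA3 were well above background on all 30 arrays, CDH1 on 24 and on none of SK-BR-3, and the leukocyte genes PTPRC and CD3D on 0 and 1. Of genes known from other cell types, COL1A1 was well above background on 28 arrays, COL3A1 on 5, CDH5 on 10 and PECAM1 on 6. ID1 to ID4, direct BMP targets, had a median ratio of 1.26 at 24 h, and all 4 passed the test (limma, adjusted p under 0.05 over all probes).

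In the 5 lines together, the histone cluster genes lay close to equal signal, with more genes above 0 than below it at 24 h. Over the 63 genes, the median of the mean ratios was -0.047 at 30 min. From 1 h to 24 h it was 0.084, 0.066, 0.0055, 0.058 and 0.12. The number of genes above 0 was 18, 52, 52, 33, 43 and 58 at these times, while the share of all probes above 0 was 47.5%, 48.8%, 50.3%, 47.8%, 48.7% and 51.6%. Per array, the median of the 63 genes at 24 h was 0.19 in ZR-75-30, 0.24 in SK-BR-3, 0.029 in HCC1954, 0.15 in HCC1419 and 0.11 in MDA-MB-361. All 5 arrays of 24 h were above 0. At 30 min the median was -0.020 in ZR-75-30, -0.12 in SK-BR-3, 0.025 in HCC1954, -0.022 in HCC1419 and -0.018 in MDA-MB-361, with 1 of 5 arrays above 0. The array medians at 30 min and 24 h did not overlap, since the highest at 30 min and the lowest at 24 h, both of HCC1954, were 0.025 and 0.029. In bulk RNA, a change in the number of cells that make histone mRNA and a change in its amount per cell cannot be told apart.

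Of single genes, 1 passed the test against 0 as higher at 1 h (background 0.612% of all probes) and 1 at 24 h (1.06%), none passed as higher at the other 4 times (0.0585% at 30 min, 0.29% at 3 h, 0.139% at 6 h and 0.351% at 12 h), and none passed as lower at any time (0.022%, 0.361%, 0.0585%, 0.0366%, 0.112% and 0.522% from 30 min to 24 h). At an unadjusted p under 0.05, 1, 10, 9, 4, 9 and 18 genes were higher at the 6 times in order, where 3.05%, 6.9%, 5.8%, 3.84%, 6.3% and 7.82% of all probes were. On the same rule 3, 1, 1, 1, 1 and 0 genes were lower, where 4.02%, 7.43%, 4.47%, 3.12%, 5.72% and 6.71% of all probes were. At 24 h the genes higher were thus 18 of 63 and those lower 0 of 63.

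Between these times the lines went apart. At 1 h the median was 0.23 in ZR-75-30, 0.16 in SK-BR-3, -0.17 in HCC1954, 0.15 in HCC1419 and 0.036 in MDA-MB-361, so HCC1954 lay below 0 and the other 4 lines above it. At 12 h it was 0.43 in ZR-75-30, -0.16 in SK-BR-3, 0.087 in HCC1954, 0.030 in HCC1419 and -0.050 in MDA-MB-361, with ZR-75-30 and SK-BR-3 at opposite ends. The SD between lines was 0.16 at 1 h and 0.22 at 12 h, and 0.033 to 0.082 at the other 4 times. Leaving out ZR-75-30 brought the 12 h median over the genes from 0.058 to -0.016, and leaving out SK-BR-3 brought it to 0.14. Leaving out SK-BR-3 lowered the 24 h median to 0.071, and leaving out SK-BR-3 or HCC1954 changed the 1 h median to 0.047 or 0.16.

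**Figure D1:**
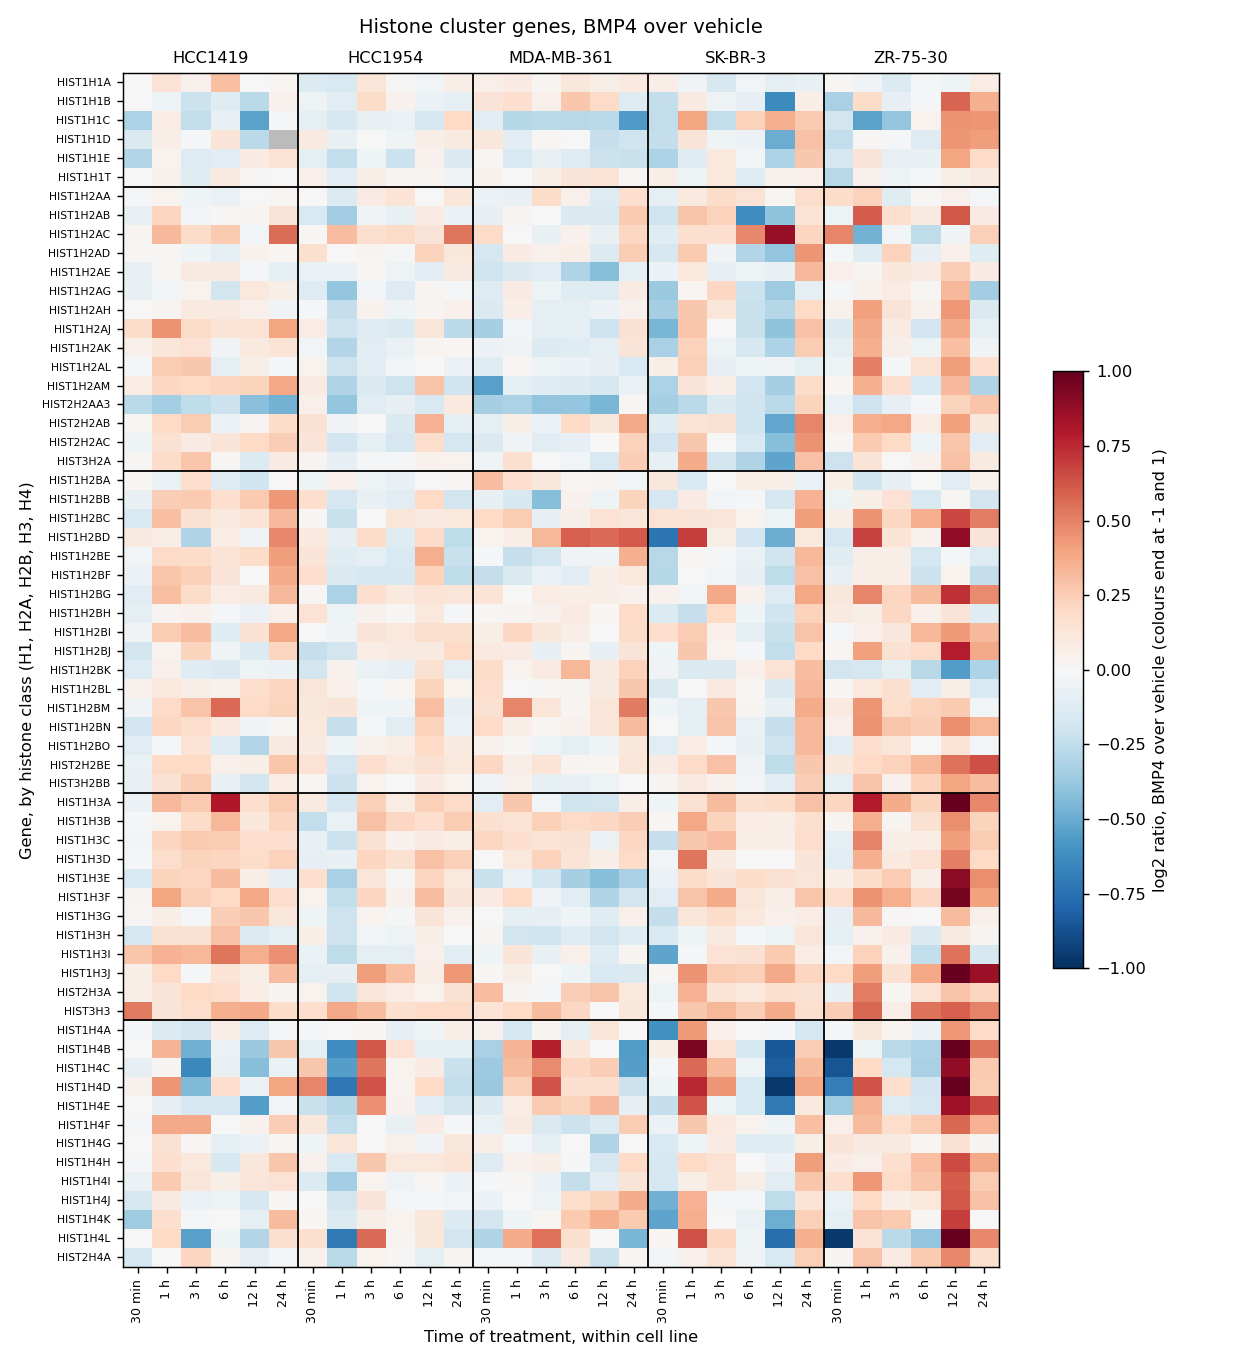
Each row is a histone cluster gene, grouped by class from H1 to H4, each column an array (5 lines by 6 time points), and the colour is the log2 ratio of BMP4 over vehicle, with grey for a missing value. HIST1H4B, HIST1H4C, HIST1H4D and HIST1H4L change colour together from array to array, most genes of ZR-75-30 at 12 h are red (58 of 63 above 0) and most of HCC1954 at 1 h are blue (7 of 63 above 0).

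The difference between 24 h and 30 min was above 0 for 61 of 63 genes, with a median of 0.18, against 53.5% of all probes and a median of 0.0077. No gene passed the test of this difference (limma with the cell line as a block, adjusted p under 0.05), which 0.146% of all probes passed as higher and 0.0146% as lower. At an unadjusted p under 0.05, 14 genes were higher and none lower, where 4.44% of all probes were higher and 2.62% lower. The SE of a single gene's difference was between 0.059 and 0.32, with a median of 0.11. The exceptions below 0 were HIST1H2AL (-0.012) and HIST1H2BA (-0.098), the latter a testis gene never well above background. Among the 56 genes well above background on all arrays in both channels, 55 were above 0 and the median was 0.20, against 57.7% and 0.028 for the 19129 probes of that kind. The median of the mean of 3, 6, 12 and 24 h minus 30 min was 0.11, with 61 of 63 genes above 0, where 53.3% of all probes were, and none passing the test, which 0.0927% of all probes passed as higher and 0% as lower. At an unadjusted p under 0.05, 7 genes were higher and none lower, where 3.36% and 1.62% of all probes were. No gene passed the F test over all 6 times, which 0.0902% of all probes passed, and 2 genes had an unadjusted p under 0.05 in it, as 4.2% of all probes had.

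By line, the median difference between 24 h and 30 min over the genes was 0.35 in SK-BR-3 (59 of 63 above 0), 0.22 in ZR-75-30 (46 of 63), 0.18 in HCC1419 (55 of 62, as HIST1H1D had no value at 24 h there), 0.076 in MDA-MB-361 (42 of 63) and 0.0088 in HCC1954 (33 of 63). Of all probes, 63.2% were above 0 in HCC1419 and 48.5% to 52.4% in the other 4 lines. SK-BR-3 had the highest value and HCC1954 one near 0. Without SK-BR-3 the median over the genes was 0.11 and without HCC1954 it was 0.23. The arrays of 30 min and 24 h were on different slides in each of the 5 lines, so slide and time cannot be told apart in this difference within a line. In SK-BR-3, ZR-75-30 and HCC1954 they were also scanned on different days. In 2 lines, arrays of 3 h or later shared the slide of 30 min. The median difference there was 0.13 in HCC1419 (3 h and 6 h minus 30 min, 46 of 63 genes above 0) and 0.27 in ZR-75-30 (3 h and 12 h, 57 of 63). The 1 h array shared that slide in the lines other than ZR-75-30. There the array medians at 30 min and 1 h were -0.022 and 0.15 in HCC1419 and -0.018 and 0.036 in MDA-MB-361. They were -0.12 and 0.16 in SK-BR-3, while HCC1954 went down from 0.025 to -0.17. With slide as a fixed block, an alternative chosen after seeing the data, the median of the 24 h minus 30 min difference was 0.31, and 59 genes were above 0. No slide held both times, so that estimate was reached through the other times. Only HCC1419 and ZR-75-30 linked 30 min to times of 3 h or later on a slide. With each array centred on its median in place of loess, the median difference was 0.49, so its size depended on the scaling and its sign did not.

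All 5 classes had a median difference above 0. For H1, the linker histones, it was 0.18, for H2A 0.18 (14 of 15 genes above 0), for H2B 0.16 (16 of 17), for H3 0.14 (12 of 12) and for H4 0.23 (13 of 13). The time courses of the classes differed in shape. H3 was at -0.026 at 30 min and then at 0.18, 0.17, 0.12, 0.21 and 0.17 from 1 h to 24 h, with 11 or 12 of 12 genes above 0 at each of these times. H2A was at 0.075 at 1 h, was below 0 at 6 h with -0.063 and 2 of 15 genes above 0, and was at 0.10 at 24 h. H4 was at -0.12 at 30 min with 1 of 13 genes above 0, and at 0.11 at 1 h with 13 of 13. H1 stayed between -0.091 and 0.049. Differences between classes were not tested.

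**Figure D2:**
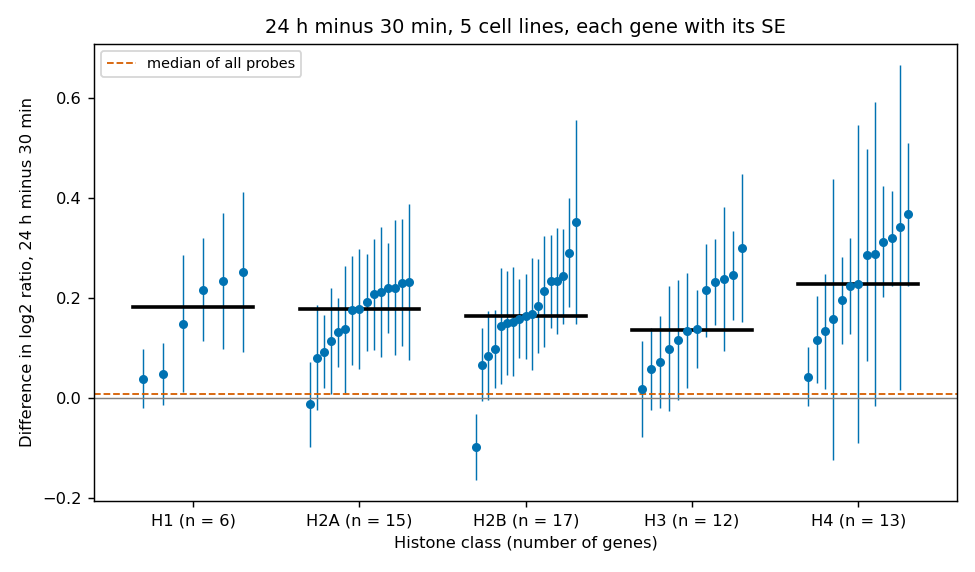
Points are the 63 genes by histone class, the vertical axis is the difference in log2 ratio between 24 h and 30 min over 5 lines, bars are 1 SE, black lines are class medians and the dashed line is the median of all probes (0.0077). The class medians lie between 0.14 (H3) and 0.23 (H4), and 61 of 63 points lie above 0.

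The genes with the largest differences between 24 h and 30 min among those well above background were of the H4, H2B and H3 classes. HIST1H4K (probe at chr6:27906933-27906992, hg18), an H4 gene, had a difference of 0.10 in ZR-75-30, 0.77 in SK-BR-3, -0.16 in HCC1954, 0.67 in HCC1419 and 0.45 in MDA-MB-361, which gave 0.37 ± 0.14 (SE) over the lines with an adjusted p of 0.576. Only HCC1954 lay below 0. HIST1H4H had 0.29 in ZR-75-30, 0.58 in SK-BR-3, 0.10 in HCC1954, 0.30 in HCC1419 and 0.33 in MDA-MB-361, all above 0, and 0.32 ± 0.095 (SE) over the lines, with an unadjusted p of 0.00264 and an adjusted p of 0.314. HIST1H2BJ was above 0 in each of the 5 lines too, at 0.36 in ZR-75-30, 0.24 in SK-BR-3, 0.43 in HCC1954, 0.40 in HCC1419 and 0.029 in MDA-MB-361, and had 0.29 ± 0.11 (SE). HIST1H2BD stood at 0.35 ± 0.20 (SE), HIST1H4J at 0.31 ± 0.11 (SE) and HIST1H3J at 0.30 ± 0.15 (SE), each above 0 in 4 of 5 lines. HIST1H4B stood at 0.34 ± 0.32 (SE) and HIST1H4L at 0.29 ± 0.30 (SE), and here ZR-75-30 alone decided the value. HIST1H4B had 1.49 in ZR-75-30, 0.19 in SK-BR-3, -0.0024 in HCC1954, 0.26 in HCC1419 and -0.23 in MDA-MB-361, and without ZR-75-30 its difference was 0.053 and that of HIST1H4L was -0.0004. None of the 8 passed the test.

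Against a ratio of 0, 1 gene passed the test at 24 h and another at 1 h. HIST1H2BI, an H2B gene of the large cluster (probe at chr6:26381354-26381413, hg18), had at 24 h a ratio of 0.32 in ZR-75-30, 0.28 in SK-BR-3, 0.16 in HCC1954, 0.39 in HCC1419 and 0.19 in MDA-MB-361. All 5 lines were above 0. At 30 min it had -0.016 in ZR-75-30, 0.16 in SK-BR-3, 0.0024 in HCC1954, -0.035 in HCC1419 and 0.056 in MDA-MB-361, so the value of SK-BR-3 at 30 min was as high as that of HCC1954 at 24 h and the times overlapped there. The mean at 24 h was 0.27 ± 0.095 (SD, n = 5) with a limma adjusted p of 0.0314, where 1.06% of all probes were called higher at this time. Its level in the BMP4-treated channel rose by 0.37 ± 0.088 (SE, log2) from 30 min to 24 h with an adjusted p of 0.0341, and its level in the vehicle channel differed by 0.14 ± 0.11 with an adjusted p of 0.701. The direct test of the ratio, 24 h minus 30 min, gave 0.23 ± 0.093 (SE) and was not passed (limma, adjusted p = 0.588). Leaving out any of ZR-75-30, SK-BR-3, HCC1954, HCC1419 or MDA-MB-361 ended the call at 24 h, with estimates of 0.24 to 0.29 and adjusted p of 0.055 to 0.15, and so did median centring (0.51, adjusted p = 0.182) and the deposited processed values (0.23, adjusted p = 0.0898). Its promoter, shown because it carries the element typical of H2B genes, is printed with matches to that element (ATTTGCAT, bound by OCT1) and to CCAAT in capitals, 5′ to 3′ over the 120 bases before the start, from RefSeq.

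HIST1H2BI, GRCh38.p14 chr6:26272811-26272930, plus strand: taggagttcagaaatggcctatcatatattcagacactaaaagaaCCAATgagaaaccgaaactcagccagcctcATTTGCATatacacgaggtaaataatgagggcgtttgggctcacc

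HIST3H3 encodes an H3 variant known from the testis and lies on chromosome 1 (probe at chr1:226679269-226679328, hg18). Its ratio at 1 h was 0.57 in ZR-75-30, 0.27 in SK-BR-3, 0.38 in HCC1954, 0.13 in HCC1419 and 0.20 in MDA-MB-361. The 5 lines were above 0, with a mean of 0.31 ± 0.17 (SD, n = 5) and a limma adjusted p of 0.0415, where 0.612% of all probes were called higher. At 30 min, however, it stood at 0.24 in ZR-75-30, -0.0098 in SK-BR-3, 0.17 in HCC1954, 0.52 in HCC1419 and 0.13 in MDA-MB-361, so the values of the 2 times overlapped. It was above 0 on all arrays but that of SK-BR-3 at 30 min, its means lay between 0.21 and 0.31 at the 6 times, and its 24 h minus 30 min difference was 0.017 ± 0.10 (SE). A dye bias of this probe would give such a ratio and was not tested. The probe was well above background on all 30 arrays in both channels. Its level in vehicle-treated cells was the highest of all the histone cluster genes in each line, from 15.94 in SK-BR-3 to 16.99 in MDA-MB-361 (log2). Which RNA gives so bright a signal was not tested. Without ZR-75-30, SK-BR-3, HCC1954, HCC1419 or MDA-MB-361 in turn the adjusted p at 1 h was between 0.064 and 0.17, and it was 0.17 with median centring, 0.322 with the deposited processed values, 0.0949 with the scanner software's log ratio and 0.272 with array weights.

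With the cell line as a block, which takes out what the arrays of a line share, 10 combinations of gene and time passed the test against 0 instead of 2. The error of this test leaves out the spread between the means of the lines. Its p-values thus do not measure agreement between lines as those without a block do. At 24 h 6 genes were called higher, where 2.65% of all probes were, and none lower, where 1.77% were. The 6 were the H2B genes HIST1H2BC (0.30), HIST1H2BG (0.27), HIST1H2BI (0.27) and HIST2H2BE (0.28), the H3 gene HIST1H3B (0.22) and the H4 gene HIST1H4H (0.28). The further probes of HIST2H2BE had means of 0.19 and 0.12 at 24 h and correlated at -0.070 and -0.29 with the probe used. That of HIST1H3B had a mean of 0.090 and correlated at 0.23. HIST3H3 was called at 1 h, 6 h and 12 h (0.31, 0.30 and 0.31), where 1.31%, 0.412% and 1.24% of all probes were called higher. HIST2H2AA3 was called lower at 1 h (-0.30), where 1.22% of all probes were, and its 5 arrays of 1 h were at -0.21 in ZR-75-30, -0.27 in SK-BR-3, -0.39 in HCC1954, -0.34 in HCC1419 and -0.32 in MDA-MB-361. A further probe of HIST2H2AA3 correlated at 0.26 with the one used. HIST1H2BG and HIST1H3B were named after their values were seen.

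**Figure D3:**
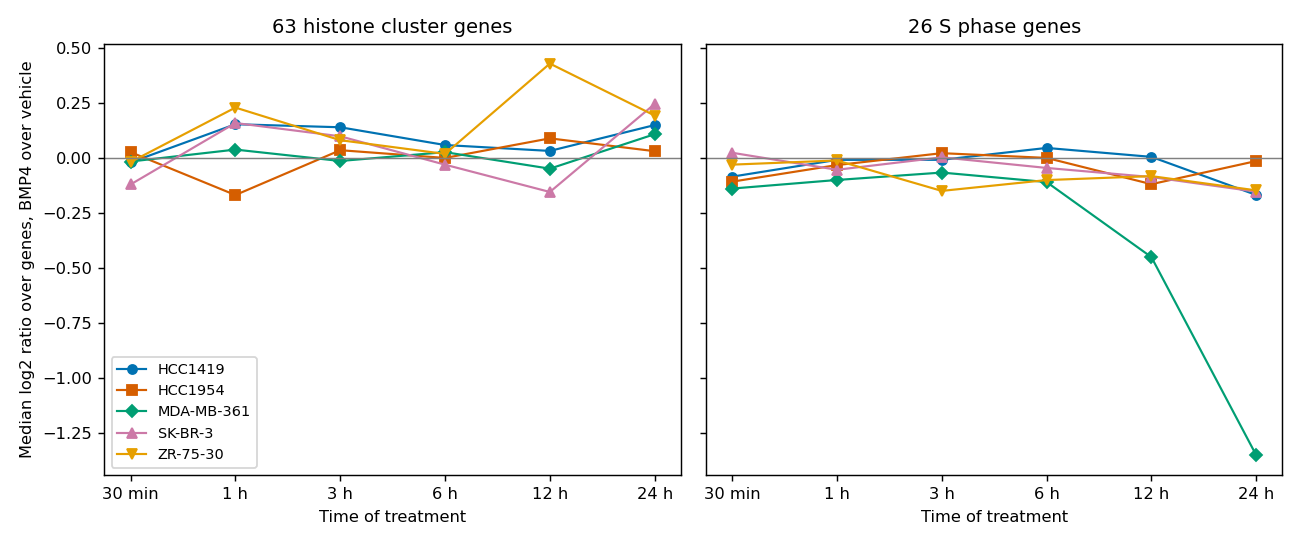
Lines join the 6 time points of each cell line, the vertical axis is the median log2 ratio over 63 histone cluster genes (left) or over 26 genes of DNA replication and S phase (right), and each point is 1 array. At 24 h the histone medians lie between 0.029 and 0.24 and the S phase medians between -1.35 (MDA-MB-361) and -0.016.

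The widest swings in the heat map of ratios belonged to HIST1H4B, HIST1H4C, HIST1H4D and HIST1H4L, of which HIST1H4C and HIST1H4D were named after their values were seen. The probe of HIST1H4B lies at chr6:26135128-26135187 (hg18). H4 is the core histone with the least variation between genes, since most H4 genes of the clusters encode the same protein. Over the 30 arrays the SD of the ratio was 0.49 for HIST1H4B, 0.47 for HIST1H4D, 0.45 for HIST1H4L and 0.42 for HIST1H4C, and the median over all 63 genes was 0.19. In the order of the 6 times, HIST1H4B was at -0.97, -0.052, -0.27, -0.31, 1.10 and 0.53 in ZR-75-30. In SK-BR-3 it was at 0.062, 0.94, 0.15, -0.16, -0.85 and 0.25. In HCC1954 it was at -0.091, -0.62, 0.62, 0.15, -0.090 and -0.093. The high and low arrays thus fell at different times in different lines, and no time point was high or low in all 5. In MDA-MB-361 it was at -0.33, 0.34, 0.78, 0.11, 0.0049 and -0.56, and in HCC1419 at 0.0042, 0.34, -0.48, -0.066, -0.37 and 0.27.

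The 4 genes ran together. Pearson correlations between their ratios over the 30 arrays were 0.97 for HIST1H4B with HIST1H4L, 0.97 for HIST1H4C with HIST1H4L and 0.89 for HIST1H4B with HIST1H4D. HIST1H4E followed them at 0.83 with HIST1H4B, and its nearest gene was HIST1H1B, an H1 gene, at 0.89. Other H4 genes went less with them. HIST1H4B correlated at 0.50 with HIST1H4H, 0.50 with HIST1H4K, 0.31 with HIST1H4F and 0.29 with HIST1H4I, and HIST1H4F and HIST1H4I correlated at 0.87 with each other. The points of these correlations share arrays, lines and possibly hybridising RNA, so they are given as a description.

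**Figure D4:**
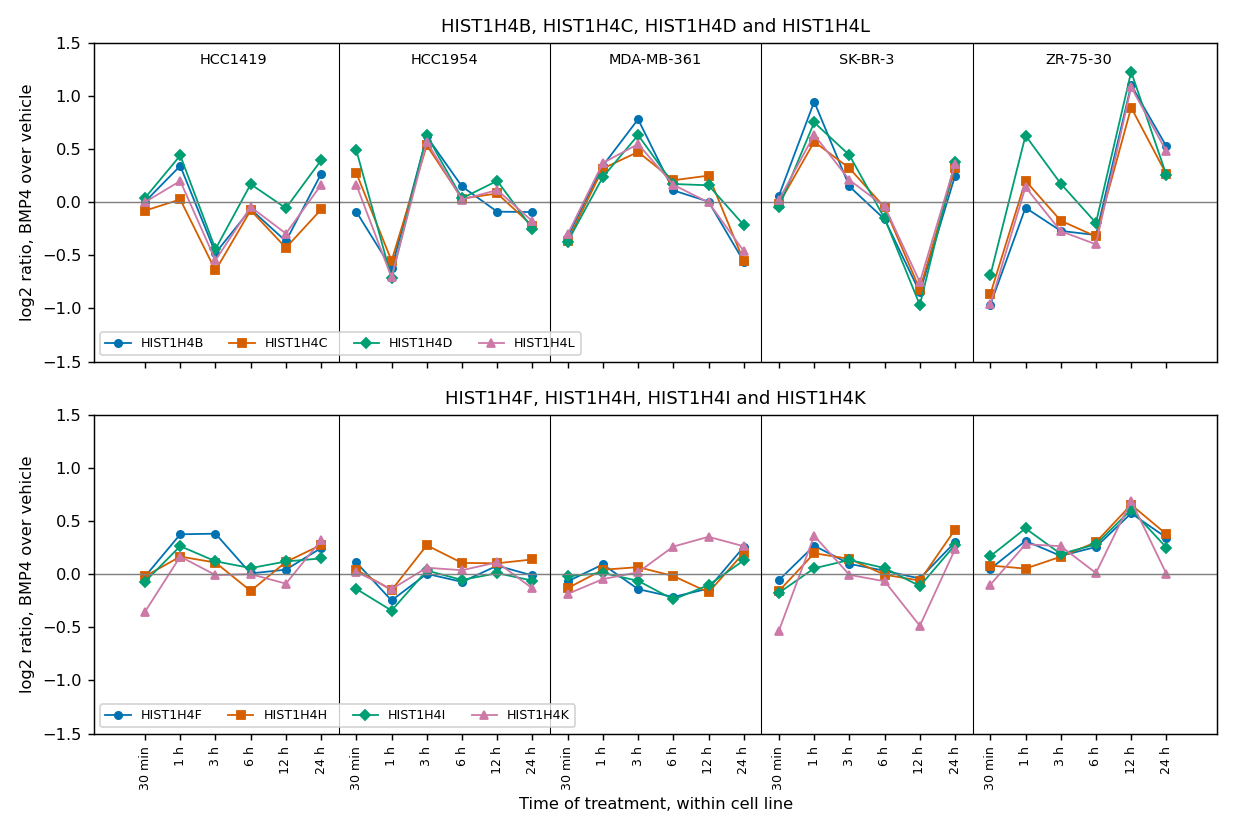
Log2 ratio of BMP4 over vehicle for 4 H4 genes in the upper panel and another 4 in the lower one, with the 6 time points of each line joined. The upper 4 genes reach 1.23 in ZR-75-30 at 12 h and -0.97 in the 12 h array of SK-BR-3 and the 30 min array of ZR-75-30, while the lower 4 stay between -0.53 and 0.69.

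The promoters of these H4 genes are printed to show the element they share with the other H4 genes that swung less. Matches to GGTCCG, which lies in the H4 element bound by MIZF, to TATAAA and to CCAAT are in capitals on either strand, and the sequences are the 120 bases before the RefSeq start, 5′ to 3′ in the direction of transcription. HIST1H4H and HIST1H4K are shown for comparison.

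HIST1H4B, GRCh38.p14 chr6:26027284-26027403, minus strand: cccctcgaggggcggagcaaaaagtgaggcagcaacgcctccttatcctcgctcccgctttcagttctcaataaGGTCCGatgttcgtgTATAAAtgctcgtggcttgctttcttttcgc
HIST1H4D, GRCh38.p14 chr6:26189113-26189232, minus strand: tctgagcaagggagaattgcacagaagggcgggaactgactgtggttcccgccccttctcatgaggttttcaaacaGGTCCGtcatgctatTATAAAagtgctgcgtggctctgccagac
HIST1H4L, GRCh38.p14 chr6:27873535-27873654, minus strand: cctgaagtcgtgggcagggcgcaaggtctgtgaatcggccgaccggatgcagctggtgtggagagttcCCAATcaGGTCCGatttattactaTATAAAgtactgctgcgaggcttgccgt
HIST1H4E, GRCh38.p14 chr6:26204490-26204609, plus strand: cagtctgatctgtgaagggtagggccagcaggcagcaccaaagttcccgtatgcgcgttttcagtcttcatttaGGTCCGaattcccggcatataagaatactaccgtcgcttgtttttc
HIST1H4H, GRCh38.p14 chr6:26285535-26285654, minus strand: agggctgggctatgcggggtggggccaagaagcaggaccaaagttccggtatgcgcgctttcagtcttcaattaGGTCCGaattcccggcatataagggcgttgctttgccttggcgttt
HIST1H4K, GRCh38.p14 chr6:27831561-27831680, minus strand: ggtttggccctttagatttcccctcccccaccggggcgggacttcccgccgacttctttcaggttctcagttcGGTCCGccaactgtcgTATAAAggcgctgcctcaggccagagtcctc

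GGTCCG, searched on both strands from 250 bases before to 50 after the start, was present in 10 of 11 H4 promoters (90.9%), in 1 of 14 of H2A, 1 of 17 of H2B, 1 of 10 of H3 and none of 6 of H1, and in 11.3% of 35116 RefSeq promoters of the same length. It was in the promoters of HIST1H4B, HIST1H4D, HIST1H4L and HIST1H4E and in those of HIST1H4H and HIST1H4K, so genes with wider and narrower swings both hold it. The promoters of HIST1H4J and HIST1H4K differed at 1 of 120 bases, and the ratios of these genes correlated at 0.88. Promoters were compared position by position without alignment, so a shared element at a shifted position counts as different. Those of HIST1H4B and HIST1H4L, in which GGTCCG is so shifted, were identical at 34 of 120 positions, and the ratios of these genes correlated at 0.97. HIST1H4E and HIST1H4H were identical at 90 of 120, with a correlation of 0.51. The octamer ATTTGCAT was in 11 of 14 H2A promoters and 13 of 17 H2B promoters, 1 of 10 of H3 and none of H1 and H4, against 1.77% of all promoters. CCAAT was in 86.2% of the 58 histone promoters that could be matched (34.6% of all) and TATAAA in 65.5% (11.5% of all). HIST1H2AH, HIST1H3I, HIST1H3J, HIST1H4A and HIST1H4C were not matched.

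Correlation over the arrays followed class in part. For 43 of the 59 genes well above background on more than 15 arrays, the gene with the nearest ratios belonged to the same class. The median correlation was 0.47 within a class and 0.41 between classes, and after centring each line it was 0.53 and 0.42. Some pairs of a class were close, such as HIST1H2BB with HIST1H2BE (0.92), HIST1H2AJ with HIST1H2AM (0.90), HIST1H3E with HIST1H3F (0.88) and HIST1H4J with HIST1H4K (0.88). HIST1H2BK, which also gives a polyadenylated transcript, went least with the others, and its nearest gene, HIST1H2BL, correlated at 0.36. These pairs were picked after their values were seen, apart from the genes that the rule for named genes gave.

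The ratio differed between the 5 lines for 12 of 63 genes (limma F test, adjusted p under 0.05), where 22.2% of all probes differed, so the share among the histone genes was near that of all probes. The 5 with the smallest p were HIST1H4I, HIST1H2BK, HIST1H3E, HIST1H2AE and HIST2H2AA3. HIST1H4I had a mean ratio over its 6 arrays of 0.32 ± 0.17 in ZR-75-30, 0.039 ± 0.16 in SK-BR-3, -0.092 ± 0.14 in HCC1954, 0.11 ± 0.11 in HCC1419 and -0.047 ± 0.12 in MDA-MB-361 (SD, n = 6 a line), with an adjusted p of 0.00612. ZR-75-30 was highest for it. HIST1H2BK went the other way in that line, with -0.27 ± 0.16 in ZR-75-30, 0.031 ± 0.17 in SK-BR-3, -0.039 ± 0.12 in HCC1954, -0.077 ± 0.073 in HCC1419 and 0.16 ± 0.11 in MDA-MB-361 and an adjusted p of 0.00935, and it was below 0 on all 6 arrays of ZR-75-30 and above 0 on all 6 of MDA-MB-361. HIST1H3E had 0.32 ± 0.32 in ZR-75-30, 0.12 ± 0.10 in SK-BR-3, 0.050 ± 0.20 in HCC1954, 0.10 ± 0.19 in HCC1419 and -0.26 ± 0.13 in MDA-MB-361, and HIST1H2AE had 0.10 ± 0.079 in ZR-75-30, 0.027 ± 0.16 in SK-BR-3, -0.030 ± 0.069 in HCC1954, 0.0017 ± 0.079 in HCC1419 and -0.21 ± 0.13 in MDA-MB-361. Both were below 0 on all 6 arrays of MDA-MB-361. HIST2H2AA3 had 0.021 ± 0.19 in ZR-75-30, -0.16 ± 0.20 in SK-BR-3, -0.10 ± 0.17 in HCC1954, -0.33 ± 0.10 in HCC1419 and -0.31 ± 0.17 in MDA-MB-361, and was below 0 on all 6 arrays of HCC1419. The other 7 were HIST1H3I, HIST1H3J, HIST1H3F, HIST1H3A, HIST1H4F, HIST1H2BC and HIST1H2BG, with ZR-75-30 highest in all but HIST1H3I. Without MDA-MB-361 none of the 63 genes was called, without ZR-75-30 4 were, and with array medians in place of loess none was. HCC1419 and MDA-MB-361 were each scanned on 1 day of their own and SK-BR-3 on 2, so day and line cannot be told apart there.

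In vehicle-treated cells the level of the histone genes differed between the lines. Each slide held 1 line, so a difference between lines is also one between slides. HCC1419, MDA-MB-361 and SK-BR-3 were scanned on days of their own, so line and day cannot be told apart there. The log2 level in the Cy3 channel differed between lines for 58 of 63 genes (limma F test), against 73.1% of all probes. Among all probes a larger share than among the histone genes was not well above background, and probes of similar signal were not compared. The error of this F test, and of that of the ratio, was the variation of a line's arrays over time, not that between repeats of a line. The exceptions were HIST1H1A, HIST1H1T, HIST1H2BA and HIST1H4G, which were below or near background, and HIST1H2BD, which was well above it on 30 arrays. ZR-75-30 had the highest level for 35 genes, MDA-MB-361 for 12, SK-BR-3 for 11, HCC1419 for 4 and HCC1954 for 1, while HCC1954 had the lowest for 28 and MDA-MB-361 for 22. The range between the highest and the lowest line had a median of 1.14 over the genes and reached 2.98 for HIST1H4K, a 7.91-fold difference. HIST1H4K stood at 8.90 ± 0.26 in HCC1954, 10.56 ± 0.15 in HCC1419, 10.79 ± 0.49 in SK-BR-3, 11.48 ± 0.13 in MDA-MB-361 and 11.88 ± 0.31 in ZR-75-30 (SD, n = 6 a line). SK-BR-3 and HCC1419 did not differ beyond the SD of SK-BR-3, ZR-75-30 and MDA-MB-361 differed by more than the SD of either, and HCC1954 stood apart below.

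The order of the lines changed with the class. For H2B, ZR-75-30 was highest for 16 of 17 genes, with a median of 0.38 above the mean of the lines. For H2A it was highest for 11 of 15, with a median of 0.66 above. For H3, MDA-MB-361 was highest for 8 of 12, with a median of 0.97 above, and HCC1419 was at -0.52. For H1, HCC1419 was highest for 4 of 6. For H4, SK-BR-3 and ZR-75-30 were highest for 6 genes each. HIST2H3A, an H3 gene of the cluster on chromosome 1, stood at 13.83 ± 0.14 in HCC1419, 13.87 ± 0.15 in SK-BR-3, 14.35 ± 0.22 in HCC1954, 14.87 ± 0.13 in ZR-75-30 and 16.18 ± 0.11 in MDA-MB-361, so that MDA-MB-361 lay above the other lines by more than their SD and SK-BR-3 and HCC1419 did not differ beyond it. HIST1H2AG stood at 11.17 ± 0.21 in HCC1954, 12.37 ± 0.49 in SK-BR-3, 13.21 ± 0.17 in HCC1419, 13.46 ± 0.32 in ZR-75-30 and 13.96 ± 0.17 in MDA-MB-361, HIST1H2AH at 11.92 ± 0.22 in HCC1954, 12.88 ± 0.47 in SK-BR-3, 13.82 ± 0.13 in HCC1419, 14.06 ± 0.32 in ZR-75-30 and 14.66 ± 0.18 in MDA-MB-361 and HIST1H2AK at 12.28 ± 0.16 in HCC1954, 13.01 ± 0.40 in SK-BR-3, 13.85 ± 0.12 in HCC1419, 14.21 ± 0.29 in ZR-75-30 and 14.62 ± 0.15 in MDA-MB-361. These 3 H2A genes had the same order of lines, from HCC1954 up to MDA-MB-361, and their adjusted p values were 4.36e-13, 5.24e-13 and 5.98e-13.

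**Figure D5:**
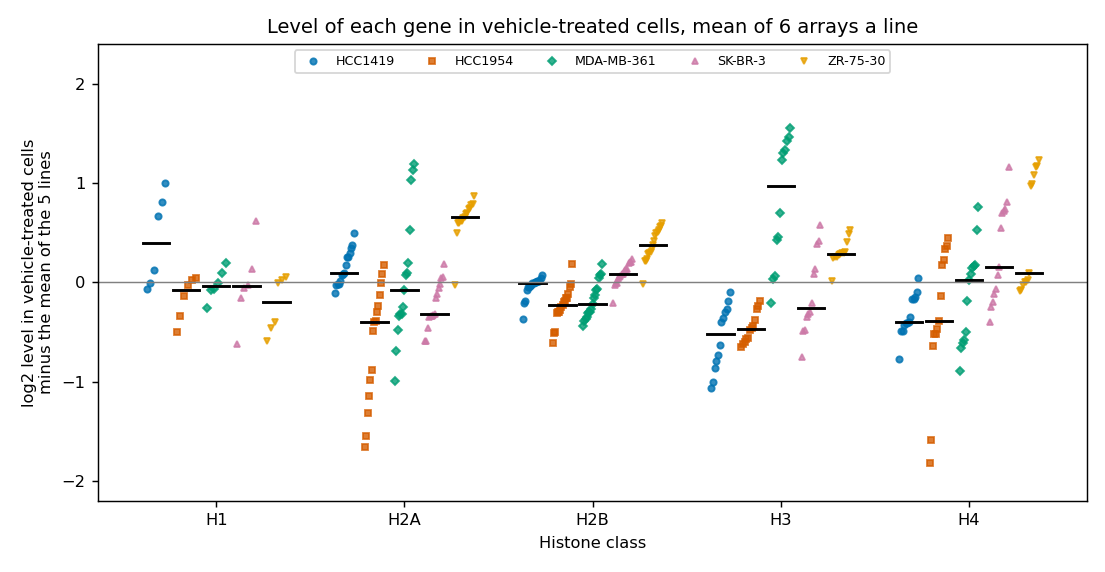
Each point is 1 histone cluster gene in 1 cell line, the vertical axis is its mean log2 level in vehicle-treated cells (6 arrays) minus the mean of the 5 lines, and black bars are class medians. MDA-MB-361 stands highest in H3 (median 0.97), ZR-75-30 in H2A (0.66) and H2B (0.38), and HCC1419 in H1 (0.39).

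Between 30 min and 24 h the levels in the separate channels changed in some lines in both channels together. Over the genes, the median difference in the vehicle channel was 0.052 (38 of 63 above 0, against 50% of all probes), and no gene passed the test, which 0% of all probes passed as higher and 0.00244% as lower, and 2 genes had an unadjusted p under 0.05, as 10.8% of all probes had. In the BMP4 channel it was 0.22 (52 of 63 above 0, against 51.2% of all probes), 18 genes had an unadjusted p under 0.05, as 15% of all probes had, and 1 gene, HIST1H2BI, passed, where 0.822% of all probes were called higher and 0.795% lower. Leaving out HCC1419, MDA-MB-361, SK-BR-3 or ZR-75-30 ended that call, and without HCC1954 3 genes passed. By line the medians in the vehicle and BMP4 channels were 0.67 and 1.00 in SK-BR-3, 0.037 and 0.22 in HCC1419, -0.15 and -0.041 in ZR-75-30, -0.038 and 0.037 in MDA-MB-361, and -0.17 and -0.15 in HCC1954. In SK-BR-3 both channels were higher at 24 h than at 30 min. In each line the value of the BMP4 channel was the higher of the pair, which restates the ratio differences by line, since both come from the same arrays. These arrays were on different slides.

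Histone genes known to give polyadenylated transcripts as well were looked at apart. They were HIST1H1C, HIST1H2AC, HIST1H2BC, HIST1H2BD, HIST1H2BK and HIST2H2BE. None of the 6 passed the test against 0 at any time, and their median ratio was 0.25 at 24 h, against 0.12 for the 63 genes. HIST1H2AC had at 24 h 0.24 in ZR-75-30, 0.22 in SK-BR-3, 0.54 in HCC1954, 0.56 in HCC1419 and 0.21 in MDA-MB-361. All lines were above 0, and the mean was 0.35 ± 0.18 (SD, n = 5), with an adjusted p of 0.134. HIST1H2BC was at 0.51 in ZR-75-30, 0.42 in SK-BR-3, 0.11 in HCC1954, 0.32 in HCC1419 and 0.12 in MDA-MB-361, with a mean of 0.30 ± 0.18 and an adjusted p of 0.0671. HIST2H2BE was at 0.65 in ZR-75-30, 0.27 in SK-BR-3, 0.10 in HCC1954, 0.27 in HCC1419 and 0.12 in MDA-MB-361, with 0.28 ± 0.22 and an adjusted p of 0.062. Both were above 0 in each line. HIST1H2BD was at 0.21 ± 0.34, HIST1H1C at 0.064 ± 0.39 and HIST1H2BK at 0.015 ± 0.25. HIST1H1C, a linker histone gene, was at 0.44 in ZR-75-30, 0.26 in SK-BR-3, 0.20 in HCC1954, -0.020 in HCC1419 and -0.56 in MDA-MB-361, so its lines lay on both sides of 0.

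Of the 4 genes known from the testis, HIST1H1T and HIST1H2BA were not well above background on any array and had mean ratios at 24 h of 0.025 ± 0.047 and -0.0089 ± 0.040 (SD, n = 5). HIST1H2AA was at 0.093 ± 0.089 and well above background on 26 arrays in Cy3. HIST3H3 is described above.

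The lists of genes that make and process histone mRNA, of histone carriers and of S phase had medians below 0 at 24 h, with differences between lines. Among 21 genes of histone mRNA synthesis and processing, none was called at any time, 6 were above 0 at 24 h and the median was -0.13. Per line this median was -0.36 in MDA-MB-361, between -0.076 and -0.019 in ZR-75-30, SK-BR-3 and HCC1419, and 0.064 in HCC1954. Their 24 h minus 30 min differences (± SE here and for the lists below) ran from CCNE2 (-0.46 ± 0.19) and CDK2 (-0.41 ± 0.17), the cyclin and kinase that act on NPAT, up to SYMPK (0.089 ± 0.17), a scaffold of mRNA 3′ end cleavage, and NCBP2 (0.21 ± 0.11), a cap-binding protein. Among 17 histone chaperones and partners, 4 were above 0 at 24 h, the median was -0.13, none was called at that time, and 1, ASF1A, was called higher at 12 h (0.30 ± 0.19, SD, limma adjusted p = 0.0313), where 0.351% of all probes were. The chaperone median at 24 h was 0.17 in ZR-75-30, 0.0017 in HCC1954, -0.086 in HCC1419, -0.12 in SK-BR-3 and -0.26 in MDA-MB-361, so the lines lay on both sides of 0. ASF1B (-0.39 ± 0.17) and CHAF1B (-0.38 ± 0.21), which deliver new H3 and H4 to replicating DNA, had the lowest differences, and ATRX (0.26 ± 0.14) and ASF1A (0.20 ± 0.091) the highest. For the 13 replacement histone genes the median ratio was -0.018 at 24 h, 6 were above 0, and 1, H3F3B, was called higher at 1 h (0.37 ± 0.13, SD, limma adjusted p = 0.0181), where 0.612% of all probes were. Both were named after their values were seen. H2AFZ (-0.23 ± 0.13) and H2AFY2 (-0.21 ± 0.12) were lowest and H3F3A (0.14 ± 0.12) and H2AFJ (0.12 ± 0.11) highest in 24 h minus 30 min.

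Of 26 S phase genes, none was above 0 at 24 h, where 58 of 63 histone genes were. Their median at 24 h was -0.36, and CDC6, MCM5 and MCM7 (named after their values were seen) were called lower, where 0.522% of all probes were. By line the S phase median at 24 h was -1.35 in MDA-MB-361, -0.17 in HCC1419, -0.15 in SK-BR-3 and ZR-75-30 and -0.016 in HCC1954, and the histone median on the same arrays was 0.11, 0.15, 0.24, 0.19 and 0.029 (SK-BR-3 before ZR-75-30). MDA-MB-361 decided the size, since without it the S phase median was -0.12. In that line 45 of 63 histone genes were above 0 at 24 h. The 24 h minus 30 min differences were lowest for UHRF1 (-0.63 ± 0.18) and RRM2 (-0.50 ± 0.25) and that of POLA2 (-0.12 ± 0.13) was among the nearest to 0. No S phase gene passed the test of that difference.

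Several probes of a gene did not always go together. Of the 63 genes, 18 had more than 1 probe, with 20 further probes, and the 24 h minus 30 min difference of these was above 0 for 14 and below 0 for 6. The correlation of a further probe with the brightest one over the 30 arrays ran from -0.41 to 0.73, with a median of 0.24. For HIST2H3A it was 0.73, for HIST1H2BD 0.31 and for HIST1H2AC -0.062. The differences of the further probes of HIST1H2BJ (-0.071) and HIST1H2BN (-0.010) came from probes well above background on no array. Those of HIST1H2BD (0.20) and HIST1H2AC (0.14) had the sign of the brightest probe, and those of HIST1H2AG (-0.10) and HIST1H2AM (-0.060) the opposite one.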

How the data were processed

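Two-colour Agilent 44K arrays were measured for 5 cell lines at 6 time points (30 arrays). The scanner files deposited by the authors hold, per the file headers, signal intensity per spot from Feature Extraction 9.5.1.1 (mean, local background and background-corrected, dye-normalised signals) and that software's log10 ratio of Cy5 over Cy3. The authors also deposited a matrix of processed values, which matched the log2 ratio of the processed signals on each array (r of 0.997 or more) and was used as an alternative. Deposited outlier, saturation and background marks per spot served as filters. Mean intensities were corrected with normexp (offset 50) and normalised by loess within each array in limma 3.58.1 (R 4.3.3, package data.table in version 1.17.8). Control spots had weight 0, outlier spots were set to missing, and spots of a probe were averaged. Channel levels were scaled with Aquantile. Linear models with empirical Bayes (lmFit, eBayes) were fitted to all 41000 probes with Benjamini-Hochberg adjustment, and a gene was called at an adjusted p under 0.05. A coefficient per time point was tested against 0 without a block, differences between times had the cell line as a block, and differences between lines had time in the model. The scripts were tested on simulated data.

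The replicate number is the cell line, which pairs the arrays over time: deviations from the time means correlated at 0.23 on average within a line (44 of 75 pairs above 0.1) and at -0.09 between lines. Deviations at a time point sum to 0 over the lines, so correlations between lines are pulled below 0 by this centring. There were 12 slides and 7 scan days, and each slide held 1 line. Triplicates were pooled, so no p-value measures the spread between repeats of a line. Tests against 0 without a block had the spread between lines at a time point as error and took all arrays as independent, although arrays of a line correlated. Those with the cell line as a block left the spread between the means of the lines out of the error. Differences between times and F tests between lines had as error the spread left after the means of line and time were taken out. The small number of arrays limits the precision of all these p-values. Named genes were those called over time or against 0, the 8 with the largest 24 h minus 30 min difference among those well above background on more than 15 arrays, the 5 with the smallest p between lines in ratio and in vehicle level, and those of the polyadenylated and testis lists. From other lists, up to 4 were named, the highest and lowest in 24 h minus 30 min. A gene of the S phase list is not reported here. The genes and lists were chosen with earlier results of these data known. Alternatives were median centring, no background correction, the software's log ratio, the deposited matrix, quantile normalisation of channels, array weights, outliers kept, a filter on dim probes, the mean over probes, the other block, scan day or slide as a block, and leaving out each line. Promoter sequences were taken from RefSeq (GRCh38.p14), and 58 of 63 genes were matched. Probe positions are those of the files (hg18).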

Additional observations from a re-analysis of the deposited data

Results flagged for a closer look

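In single cell lines some values stood far from those of the other 4 lines. The gap to the nearest value, as a share of the whole range, was 0.721 for the median of the H3 genes at 30 min, 0.711 for the median of the H4 genes at 12 h, 0.713 for the 24 h minus 30 min difference of HIST1H4B and 0.802 for that of HIST1H1T, against a critical value of 0.71 for 5 arrays. At 12 h the H4 genes of ZR-75-30 had a median of 0.65. The difference of HIST1H4B was 1.49 in ZR-75-30. That of HIST1H1T was 0.37 in ZR-75-30, and no array showed its probe well above background. Chance marks about 1 in 20 such groups.

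The ratio of BMP4 over vehicle differed between lines for 12 genes (limma F test, adjusted p). The adjusted p was 0.00612 for HIST1H4I, 0.00935 for HIST1H2BK, 0.012 for HIST1H3E, 0.0124 for HIST1H2AE, 0.0132 for HIST2H2AA3, 0.0157 for HIST1H3I, 0.0236 for HIST1H3J, 0.0243 for HIST1H3F, 0.025 for HIST1H3A, 0.0353 for HIST1H4F, 0.0356 for HIST1H2BC and 0.0498 for HIST1H2BG. Among all probes 22.2% differed between lines.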

How the results depend on the processing

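The number of calls against 0 over all genes and times was 2 and depended on the setting. It was 0 with median centring, 1 with the deposited processed values, 5 without background correction, 16 with array weights, 9 with scan day as a block, 4 with the mean over the probes of a gene, and 0 to 1 when a line was left out. With the cell line as a replicate block, 10 calls were made. Median centring gave gene medians of -0.115 at 30 min, 0.0911 at 6 h and 0.3641 at 24 h, of 0.3035 for the mean of 3 to 24 h minus 30 min and of 0.4949 for 24 h minus 30 min, and the cause was not tested. For the mean of 3 to 24 h minus 30 min, slide as a fixed block gave 0.2051. Only in HCC1419 and ZR-75-30 did a slide hold 30 min and any of these later times. With slide as a random block beside the line (correlation 0.018) the 24 h minus 30 min median was 0.18. Both slide settings were chosen after seeing the data. Differences between lines were called for 12 genes, for none with median centring, for 4 with the deposited values, for 20 with array weights and for 0 to 18 when a line was left out (18 without SK-BR-3, 4 without ZR-75-30 and 0 without MDA-MB-361). In the BMP4 channel 1 gene was called for 24 h minus 30 min, 0 without the replicate block and 0 to 3 when a line was left out. The block changed no call of the ratio between times, where no gene passed with or without it. When a line was left out, the median over the genes was -0.071 to -0.022 at 30 min, 0.047 to 0.16 at 1 h, 0.050 to 0.075 at 3 h, -0.0043 to 0.015 at 6 h, -0.016 to 0.14 at 12 h, 0.071 to 0.16 at 24 h, 0.080 to 0.14 for the mean of 3 to 24 h minus 30 min and 0.11 to 0.23 for 24 h minus 30 min. The S phase median at 24 h was -0.48 to -0.12, and the vehicle level differed between lines for 51 to 58 genes. The 24 h minus 30 min difference of HIST1H4L was -0.0004 without ZR-75-30 and up to 0.4457 without another line. Of all alternatives, 453 values were rated the same, 29 moved, 33 lost their call and 1, of a single gene, changed sign. Rated the same were counts of similar size and medians that moved by less than the spread between lines. Single genes so rated kept their side of the threshold. The sign of medians was not rated. Those over the genes fell below 0 at 6 h without MDA-MB-361 and at 12 h without ZR-75-30. Probes not well above background limit HIST1H1A, HIST1H1T, HIST1H2BA and HIST1H4G.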

Other observations

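The separate channels of HIST1H4B were uneven on single arrays. In ZR-75-30 its log2 level in vehicle-treated cells was 10.85 at 12 h and 11.98 to 12.62 at the other times, while its level in BMP4-treated cells at 12 h was 11.95, within the range of 11.65 to 12.50 of the other times. In SK-BR-3 at 12 h its vehicle level was 13.88, against 12.33 to 13.14 at the other times, and its level in BMP4-treated cells was 13.03, within 12.71 to 13.27. In ZR-75-30 at 30 min its vehicle level was 12.62 and its level in BMP4-treated cells was 11.65, against 11.95 to 12.50 at the later times.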
